A study of Homo sapiens with 6 samples.

Results

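Hephaestin (HEPH) and 9 other genes of iron handling were followed in UE7T-9 cells with and without forced expression of the adaptor gene SHC4. The 10 genes are HEPH, CP, SLC40A1, TFRC, FTH1, FTL, SLC11A2, HMOX1, IREB2 and STEAP3, and each had a row among the 28181 genes of the deposited tables. HEPH was selected on its values in this same comparison, so its difference is described here with no test. The other 9 were taken for their known function in iron import, export, storage, sensing or heme breakdown.

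UE7T-9 is a human mesenchymal stem cell line from bone marrow that was immortalised with hTERT and the E7 gene of human papillomavirus, which both groups carry. The 3 UE7T-9 SHC4 libraries (values given below as with SHC4) came from cells that overexpress the SHC4 coding region from a CMV promoter, delivered by lentivirus and selected with puromycin. The 3 UE7T-9 Cont libraries, the controls, came from cells that are described as carrying a GFP vector, while their labels read nontarget and wild-type genotype. The labels number the libraries of each group as biological replicates. The sources used here do not say if these were separate cultures, clones or rounds of infection. A p-value sets the difference between groups against the spread between these libraries within a group. UE7T-9 is a single line, and the transgene runs from a strong viral promoter, far above the cell's own SHC4 level.

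Cells take up iron mainly as transferrin bound to the transferrin receptor. The ferric iron released in endosomes is reduced by STEAP family enzymes and moved into the cytosol by the transporter encoded by SLC11A2. Surplus iron is stored in ferritin, a shell of heavy and light chains, or leaves through ferroportin, the exporter encoded by SLC40A1. Export works together with the copper-containing ferroxidases hephaestin and ceruloplasmin, which oxidise the iron so that transferrin can carry it away. Iron regulatory proteins, 1 of them encoded by IREB2, read cytosolic iron and bind hairpins in messenger RNAs called iron responsive elements. Binding near the start of an mRNA blocks its translation, and binding after the coding part, as in the transferrin receptor, keeps the mRNA from decay.

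Each value is a normalized count, the read count of a gene divided by a size factor of its library, as deposited. The libraries held 18144993 to 27721397 reads in genes, and a floor of 3 reads corresponded to a normalized count between 2.50 and 3.53. SHC4 itself averaged 114 ± 51.8 (SD, n = 3) in the controls and 136347 ± 17966 (SD, n = 3) with SHC4. UE7T-9 Cont replicate 1 was nearer to a library of the other group than to its own group. Across genes, its log2 values had a Pearson correlation of 0.977 with UE7T-9 SHC4 replicate 1, against 0.971 and 0.967 with the other control libraries. Other libraries stood apart as well. UE7T-9 Cont replicate 3 correlated at 0.968 to 0.969 with the SHC4 libraries. By mean chi-square per gene, UE7T-9 SHC4 replicate 1 differed from replicates 2 and 3 by 74.0 and 62.4. Replicates 2 and 3 differed by 13.1. Where leaving out UE7T-9 Cont replicate 1 moves a result, the value is given. Among fits without 1 library, that fit called the most genes, 367 higher and 339 lower. The mesenchymal markers NT5E, THY1, ENG, PDGFRB, COL1A1 and VIM were all read, and COL1A1 made up most of their sum, which was 119342 to 376270 in the controls and 185764 to 345971 with SHC4. PDGFRB was higher without overlap, at 2429 ± 1469 in the controls and 5698 ± 813 with SHC4 (SD, n = 3 each, log2 difference 1.38, limma adjusted p = 0.162, DESeq2 0.0171). THY1 had a log2 difference of 1.15 with overlap (limma adjusted p = 0.234). COL1A1, VIM and ENG had log2 differences of 0.41, 0.25 and 0.15, and NT5E was lower by sign at -0.36. In each of these the groups overlapped (limma adjusted p from 0.508 to 0.799). Of all genes tested by limma, 9.13% were higher with SHC4 without overlap.

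**Figure D1:**
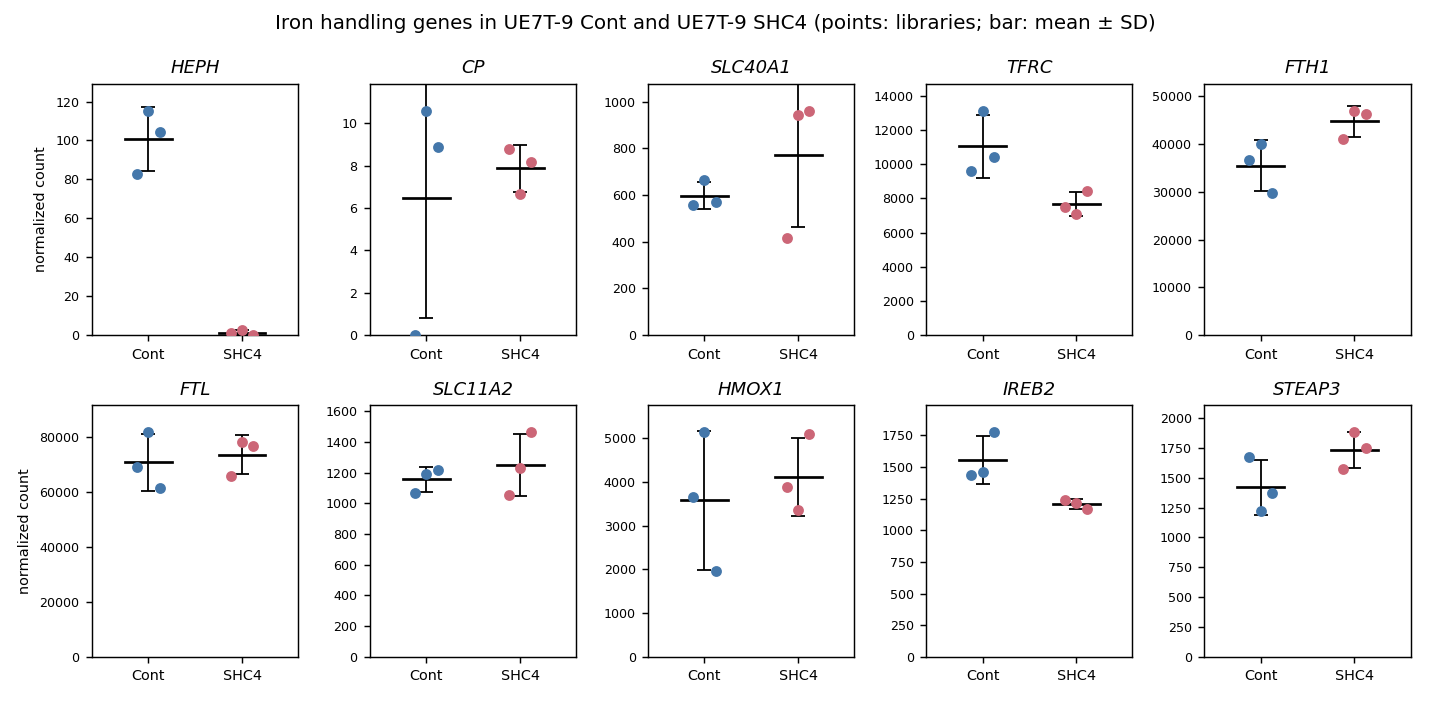
Normalized count (linear axis) of each of the 10 genes in the 3 UE7T-9 Cont and 3 UE7T-9 SHC4 libraries. Points are libraries and the bar with its error is the mean ± SD (n = 3). HEPH lies between 82.9 and 115 in the controls and between 0 and 2.50 with SHC4, while the other genes differ by far less between the groups.

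HEPH (ENSG00000089472, GRCh38 chrX:66162549-66268867, plus strand) was read at a low level in the controls and was almost absent with SHC4. Control replicates 1, 2 and 3 were at 82.9, 115 and 104 on the normalized count scale. The SHC4 replicates were at 0.879, 2.50 and 0. The groups were far apart, and each SHC4 value lay at or below the level of 3 reads. HEPH averaged 101 ± 16.5 and 1.13 ± 1.27 (SD, n = 3 each) in the controls and with SHC4, from 289 and 4 reads in all. From these summed reads, each divided by the summed size factors of its group, the level was 79.9-fold lower with SHC4. The exact 95% counting interval was 30.9 to 295. It covers counting error only, not the spread between libraries or the selection of HEPH. With 4 reads the size of the fold is poorly known. On the log2(normalized count + 1) scale, which compresses differences at low counts, the difference was -5.75. It stayed between -6.20 and -5.30 when each library was left out in turn. In bulk RNA, fewer cells with HEPH mRNA and less HEPH mRNA per cell cannot be told apart.

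The genes around HEPH showed no difference past the test. Of 17 annotated genes within 500 kb on chromosome X, 3 were listed in the tables. MSN, which encodes the cytoskeletal linker moesin, averaged 17450.4 ± 1441 (SD, n = 3) in the controls and 15489.9 ± 1873 (SD, n = 3) with SHC4, a log2 difference of -0.18 (limma adjusted p = 0.678). EDA2R, a receptor of the tumour necrosis factor receptor family, averaged 1789.8 ± 144 and 1707 ± 167 (SD, n = 3 each), a log2 difference of -0.07 (limma adjusted p = 0.844). AL450487.1 was near the floor, at 1.05 ± 0.990 and 1.35 ± 0.851 (SD, n = 3 each). In these 3 neighbours the groups overlapped.

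As a description, the 5 genes whose profile over the 6 libraries lay nearest to that of HEPH were ADAMTS16, LINC02582, IL31RA, COL19A1 and MGAM. Likeness was the root mean square distance between centred log2(normalized count + 1) profiles, among 15856 genes with a mean of at least 10, and ran from 1.09 for ADAMTS16 to 1.41 for MGAM. ADAMTS16, a secreted metalloproteinase, had 7.80, 27.1 and 76.7 in the controls and 0, 0.832 and 0 with SHC4. The long noncoding RNA LINC02582 had 166, 186 and 26.6 in the controls and was at 0 in each SHC4 library. IL31RA, a cytokine receptor subunit, had 34.1, 82.4 and 162 against 6.15, 10.8 and 1.16. Unlike these, HEPH had control values within a narrow range. None of the 5 genes is on the iron list below.

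The other ferroxidases were near the limit of detection and showed no difference past the test. Ceruloplasmin (CP, ENSG00000047457, chr3:149162410-149222055, minus strand), the circulating ferroxidase, had 0, 10.6 and 8.85 in the controls and 8.79, 6.66 and 8.15 with SHC4. Only UE7T-9 Cont replicate 1 stood out, with no read, and the groups overlapped. The log2 difference was 0.86 (standard error 0.89, limma adjusted p = 0.703) with all 6 libraries and -0.28 (adjusted p = 0.801) without that library. CP also overlaps HPS3, which lies on the opposite strand and averaged 1990.3, and whether strand was used in counting is not given in the sources used here. HEPHL1, the relative of hephaestin known from skin and hair, had 0, 5.89 and 0 in the controls and 3.52, 1.66 and 2.33 with SHC4, where again the groups overlapped. In UE7T-9 SHC4 the 3 ferroxidase genes therefore stood at means of 1.13 (HEPH), 7.87 (CP) and 2.50 (HEPHL1), whereas in the controls HEPH at 101 was well above CP at 6.48 and HEPHL1 at 1.96.

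Ferroportin (SLC40A1, ENSG00000138449, chr2:189560579-189583758, minus strand), the only known cellular iron exporter, was clearly read in both groups. Its normalized count was 558, 665 and 569.6 in the controls and 414, 943 and 962 with SHC4. Replicate 1 of UE7T-9 SHC4 was the lowest of the 6 libraries and the other two the highest, so the groups overlapped. The log2 difference was 0.28 (standard error 0.29, 95% interval -0.38 to 0.93, limma adjusted p = 0.709). Single libraries moved this value: it was 0.68 (adjusted p = 0.104) without UE7T-9 SHC4 replicate 1, 0.083 (0.961) without replicate 2 and 0.069 (0.956) without replicate 3. HAMP, which encodes the hormone hepcidin that removes ferroportin from the membrane, had at most 2 reads in any library and was not tested.

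**Figure D2:**
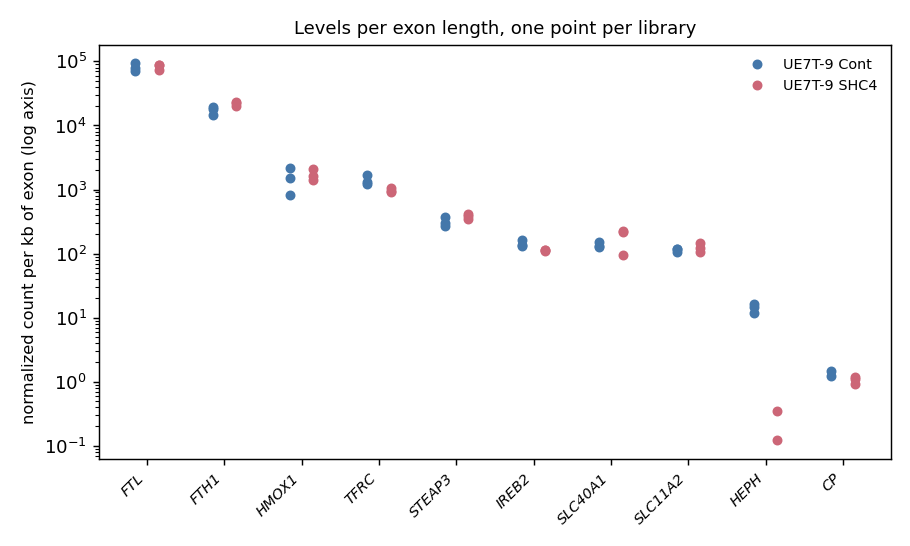
Normalized count per kilobase of exon (log axis) of the 10 genes, ordered by their UE7T-9 Cont mean, with a point for each library. FTL and FTH1 stand highest in both groups, and HEPH is above CP in the controls but below it with SHC4. Zeros (CP in UE7T-9 Cont replicate 1 and HEPH in UE7T-9 SHC4 replicate 3) are not drawn.

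Compared per kilobase of exon, the 2 ferritin genes stood far above the rest. Exon length here joins all annotated exons of a gene, which can exceed the transcript that is read. The distances between genes therefore depend in part on the annotation. The UE7T-9 Cont mean was 80402 normalized counts per kb for FTL and 17462 for FTH1. HMOX1 at 1491 and TFRC at 1401 followed, and these neighbours overlapped in the controls. STEAP3 at 311, IREB2 at 144, SLC40A1 at 138 and SLC11A2 at 114 came next, of which IREB2 and SLC40A1 overlapped. HEPH was at 14.2 and CP at 0.889. In UE7T-9 SHC4 the upper part kept this order, but HMOX1 at 1710 per kb no longer overlapped TFRC at 972. Next came SLC40A1 at 179, SLC11A2 at 123 and IREB2 at 112, where SLC40A1 overlapped SLC11A2 and SLC11A2 overlapped IREB2. HEPH moved from above CP to the last place, with 0.158 per kb against 1.08 for CP.

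The iron responsive elements of 4 of the 10 genes were read from the reference transcripts, because they are the sites through which these mRNAs are known to respond to iron. The search asked for an unpaired C, 5 bases that pair across the hairpin (G-T pairs allowed) and the loop CAGTGN, on the transcript strand and outside the coding part. It found this core in FTH1, FTL, SLC40A1 and TFRC, and in 151 (0.989%) of 15272 protein-coding genes searched. Within the part before the coding sequence, 32 genes (0.210%) held it. The sites below are written 5′ to 3′ from GENCODE 29 on GRCh38, with the 6-base loop in capitals.
FTH1, chr11:61967573-61967602, minus strand, before the coding part: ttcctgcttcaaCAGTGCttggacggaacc
FTL, chr19:48965335-48965364, plus strand, before the coding part: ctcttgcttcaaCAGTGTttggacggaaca
SLC40A1, chr2:189580660-189580689, minus strand, before the coding part: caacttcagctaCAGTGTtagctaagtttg
TFRC, chr3:196050978-196051007, minus strand, after the coding part: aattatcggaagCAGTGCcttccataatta
TFRC, chr3:196050574-196050603, minus strand, after the coding part: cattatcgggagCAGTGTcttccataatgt
TFRC, chr3:196050509-196050538, minus strand, after the coding part: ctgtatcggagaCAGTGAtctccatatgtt
TFRC, chr3:196050462-196050491, minus strand, after the coding part: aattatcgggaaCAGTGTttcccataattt

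TFRC held 4 such cores, and 2 genes of all those searched held 3 or more. No core of this form was found in HEPH, CP, SLC11A2, HMOX1, IREB2 or STEAP3, which says only that these letters are not in the searched transcripts. Iron responsive elements of another form, in these genes or in TFRC, would have been missed by this search.

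TFRC, the transferrin receptor (ENSG00000072274, chr3:196027183-196082189, minus strand), was lower in each SHC4 library than in any control. Its normalized count was 9607, 13130.0 and 10408 in the controls and 7465, 7107 and 8423 with SHC4. The means were 11048 ± 1847 and 7665 ± 680.3 (SD, n = 3 each), a ratio of 0.694. The log2 difference was -0.52 (standard error 0.16, 95% interval -0.89 to -0.15), and it did not pass with limma across all genes (adjusted p = 0.220), DESeq2 (0.0551) or edgeR (0.203). Without UE7T-9 Cont replicate 1 the limma adjusted p was 0.0634.

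The other uptake genes overlapped between the groups. SLC11A2 (ENSG00000110911, chr12:50979401-51028566, minus strand), the divalent metal transporter, had 1064, 1193 and 1215 in the controls and 1056, 1230.3 and 1463 with SHC4. Its log2 difference was 0.10 (95% interval -0.23 to 0.43, limma adjusted p = 0.793), and scaling by library size brought it to -0.0026. STEAP3 (ENSG00000115107, chr2:119223831-119265652, plus strand), the ferric reductase of endosomes, had 1669, 1221 and 1368 in the controls and 1577, 1879.5 and 1746 with SHC4. Replicate 1 of UE7T-9 Cont was the highest control and lay above the lowest SHC4 library. The log2 difference of STEAP3 was 0.30 (95% interval -0.03 to 0.62, limma adjusted p = 0.394), and 0.42 (adjusted p = 0.0964) without that library.

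The ferritin heavy chain gene had higher values with SHC4, and the light chain gene had groups that overlapped. FTH1 (ENSG00000167996, chr11:61959718-61967660, minus strand), whose chain carries ferritin's own ferroxidase site, had 36646, 40035 and 29659 in the controls and 41037, 46979 and 46226 with SHC4. The groups did not overlap, though the highest control was close to the lowest UE7T-9 SHC4 library. The log2 difference was 0.34 (standard error 0.22, 95% interval -0.15 to 0.84) and did not pass (limma adjusted p = 0.507, DESeq2 0.278). FTL (ENSG00000087086, chr19:48965301-48966878, plus strand), the light chain that helps iron settle in the shell, had 68941, 81519.7 and 61318 in the controls and 65509, 78161 and 76732 with SHC4. Here the groups overlapped, with a log2 difference of 0.06 (95% interval -0.53 to 0.66, limma adjusted p = 0.938), which was -0.04 when scaled by library size. Both genes have near-identical processed copies, between which reads may have been divided. The 12 FTH1 pseudogenes in the tables summed to between 0.868% and 1.20% of FTH1, and the 3 FTL pseudogenes to between 0.00433% and 0.0198% of FTL.

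**Figure D3:**
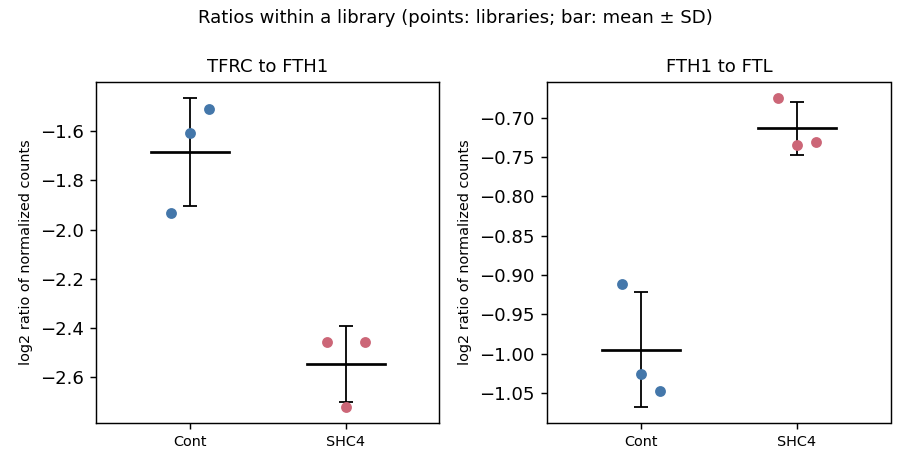
Within-library log2 ratio of the normalized counts of TFRC to FTH1 and of FTH1 to FTL, in 3 UE7T-9 Cont and 3 UE7T-9 SHC4 libraries. Points are libraries and bars are the mean ± SD. TFRC to FTH1 lies between -1.93 and -1.51 in the controls and between -2.72 and -2.46 with SHC4, and FTH1 to FTL is higher in the 3 UE7T-9 SHC4 libraries.

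Ratios within a library do not depend on how libraries are scaled. TFRC divided by FTH1, uptake against storage, was 0.262, 0.328 and 0.351 in the controls and 0.182, 0.151 and 0.182 with SHC4. The mean log2 ratio was -1.68 ± 0.22 and -2.55 ± 0.15 (SD, n = 3 each), a difference of -0.86 between groups that did not overlap (two-sided exact permutation p = 0.1, the smallest that 3 against 3 libraries allow). FTH1 divided by FTL was 0.532, 0.491 and 0.484 in the controls and 0.626, 0.601 and 0.602 with SHC4. Its mean log2 ratio was -0.995 ± 0.073 and -0.71 ± 0.034 (SD, n = 3 each), a difference of 0.28 with the same exact p of 0.1. The control library nearest to the UE7T-9 SHC4 libraries was replicate 1 in both ratios. Leaving out each library in turn gave differences of -0.99 to -0.77 for TFRC to FTH1 and 0.26 to 0.32 for FTH1 to FTL. These are 2 ratios and both hold FTH1, so they are not independent, and a design of this size cannot reach 0.05.

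IREB2 (ENSG00000136381, chr15:78437431-78501456, plus strand) encodes iron regulatory protein 2, which binds the hairpins shown above when iron is low. Its normalized count was 1441, 1459 and 1775 in the controls and 1238, 1216 and 1166 with SHC4. The 3 UE7T-9 SHC4 libraries lay below the controls and close together, with means of 1558 ± 188 and 1207 ± 37.2 (SD, n = 3 each). The log2 difference was -0.36 (standard error 0.13, 95% interval -0.64 to -0.08) and did not pass (limma adjusted p = 0.25, DESeq2 0.173). Its counterpart ACO1, iron regulatory protein 1, had 3394, 2829 and 2326 in the controls and 3396, 4172 and 3826 with SHC4. The groups of ACO1 touched at replicate 1 of each, and the log2 difference of 0.43 did not pass (standard error 0.16, limma adjusted p = 0.283).

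HMOX1 (ENSG00000100292, chr22:35380361-35394214, plus strand), heme oxygenase 1, frees iron from heme and is a known target of the factor NRF2. Its values were widely spread in the controls, at 3665, 5136 and 1955, and were 3875, 3364 and 5099 with SHC4. The groups overlapped, the log2 difference was 0.28 (95% interval -0.42 to 0.99, limma adjusted p = 0.723), and it was -0.099 without UE7T-9 Cont replicate 3. The antioxidant response element core TGACNNNGC, the motif NRF2 is known for, was searched on both strands of RefSeq promoters (250 bases before to 50 after a start, GRCh38.p14). It was in 13.3% of 35116 promoters, in 0 of 13 promoters of the 10 genes and in 17 (16.7%) of 102 promoters of the wider iron list below. Only this window was searched, so the 0 says nothing on elements farther from a start.

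Counted together, none of the 9 genes other than HEPH passed in either direction. Over all 23040 genes tested by limma, 0.0521% passed as higher with SHC4 and 0.00868% as lower (adjusted p under 0.05, log2 difference beyond 1). These shares are over all genes, HEPH among them. HEPH was selected on this comparison, so no call is given for it. At an unadjusted p below 0.05, 0 of the 9 were higher and 2 (22.2%), TFRC and IREB2, lower, where 7.47% of all genes were higher and 6.96% lower. DESeq2 gave 8 of the 9 an adjusted p and passed 0 at 0.05, where 2.06% of all genes it tested were higher and 2.08% lower. The edgeR fit tested 8 and passed 0, where it passed 0.0631% of all genes it tested as higher and 0.00631% as lower. FTH1 was the 1 gene higher without overlap (11.1% of the 9, against 9.13% of all genes), and TFRC and IREB2 were lower without overlap (22.2%, against 10.2% of all genes). The median log2 difference of the 9 was 0.28, beside -0.004 over all genes.

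**Figure D4:**
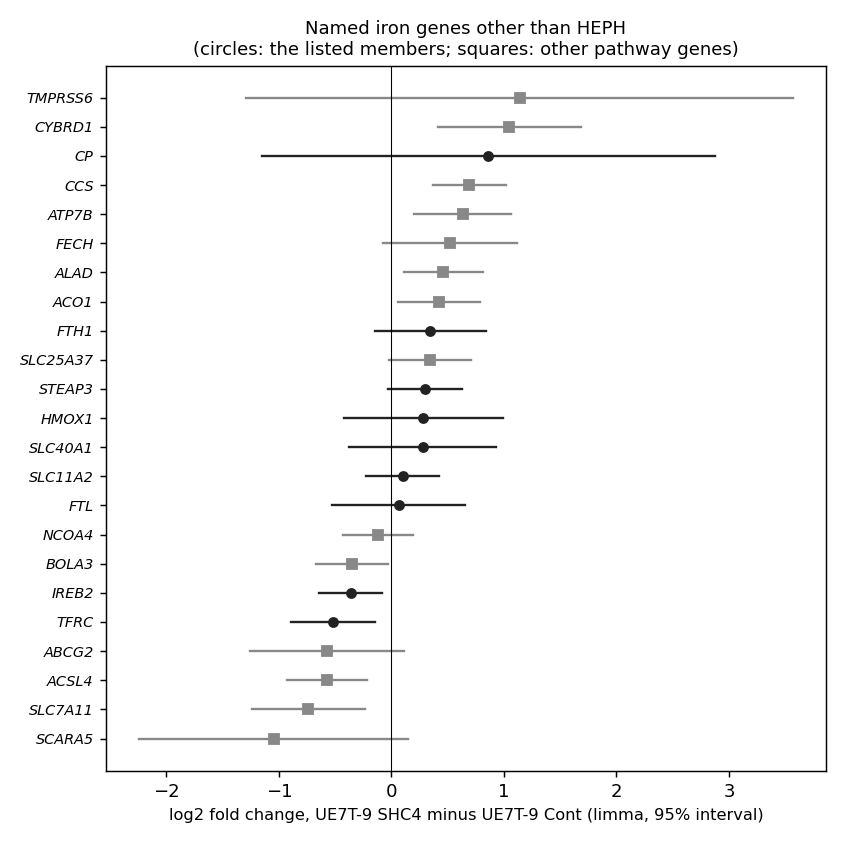
Log2 difference (UE7T-9 SHC4 minus UE7T-9 Cont, log2(normalized count + 1) scale) with its limma 95% interval for the 9 genes other than HEPH (circles) and other named genes of the iron list (squares). CYBRD1 at 1.05 and CCS at 0.69 lie on the higher side, and SLC7A11 at -0.74, ACSL4 at -0.57 and TFRC at -0.52 on the lower side.

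The wider iron list held 83 genes in 9 roles, of which 78 were read highly enough to test. LCN2, HAMP, FTMT, HJV and ALAS2 were not tested. Of the 77 tested genes other than HEPH, 43 were higher and 34 lower by sign, with a median log2 difference of 0.03. None was called by limma, and 8 in each direction (10.4%) had an unadjusted p below 0.05, beside the 7.47% and 6.96% of all genes. In 10 genes (13.0%) the UE7T-9 SHC4 libraries were higher without overlap and in 9 (11.7%) lower, near the shares of all genes given above. DESeq2, at an adjusted p below 0.05, passed 2 of 72 as higher (CYBRD1 and CCS) and 1 as lower (ACSL4), where 2.06% of all genes it tested were higher and 2.08% lower. edgeR passed 0 of 71.

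Among the uptake and reduction genes, CYBRD1, the duodenal cytochrome b that reduces ferric iron at the cell surface, was the best-read gene with a log2 difference near 1. Its normalized count was 10283, 10631 and 7821 in the controls and 12208, 25282 and 24403 with SHC4. Replicates 2 and 3 of UE7T-9 SHC4 were well above replicate 1, the same library that was low for SLC40A1. The means were 9578 ± 1532 and 20631 ± 7308 (SD, n = 3 each). The log2 difference was 1.05 (standard error 0.28) with a limma adjusted p of 0.184 and a DESeq2 adjusted p of 0.0048, and it ranged from 0.86 (limma adjusted p = 0.588, without UE7T-9 SHC4 replicate 2) to 1.39 (0.0453, without UE7T-9 SHC4 replicate 1) over the fits that leave out 1 library. SCARA5, a receptor that can take up ferritin, was low in both groups at 11.2 ± 2.93 and 5.12 ± 2.35 (SD, n = 3 each), a log2 difference of -1.05 (limma adjusted p = 0.409). SLC39A14, a zinc and iron importer, was lower without overlap (5173 and 4087, limma adjusted p = 0.296), and SLC22A17, the lipocalin 2 receptor, higher without overlap (577 and 829, adjusted p = 0.313). In all, 6 of the 13 tested uptake genes were higher by sign and 7 lower.

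Hephaestin and ceruloplasmin need copper, so the 6 copper supply genes were included. CCS, the copper chaperone for superoxide dismutase, had 504, 423 and 374 in the controls and 697, 721 and 671 with SHC4. The groups were well separated, with means of 433 ± 65.7 and 696 ± 25.1 (SD, n = 3 each). The log2 difference of 0.69 (standard error 0.14) had a limma adjusted p of 0.122, a DESeq2 adjusted p of 0.00762 and a limma adjusted p of 0.0114 without UE7T-9 Cont replicate 1. ATP7B, a copper-pumping ATPase, had 95.5, 82.4 and 89.5 against 126, 141 and 150.2, a log2 difference of 0.63 (standard error 0.19, limma adjusted p = 0.207). The importer SLC31A1 (1839 ± 173 and 1602 ± 196, SD, n = 3 each), the chaperone ATOX1 (626 ± 66.5 and 653 ± 142) and the ATPase ATP7A (529 ± 66.5 and 542 ± 78.1) overlapped between the groups.

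In the list of NRF2 and lipid peroxide defence, 7 of 11 genes were lower by sign and 4 higher, with a median log2 difference of -0.26. ACSL4, which loads polyunsaturated fatty acids into lipids and is known from ferroptosis, the iron-dependent form of cell death, had 3324, 4268 and 4748 in the controls and 2709.5, 2517 and 2993 with SHC4. The groups did not overlap, and the log2 difference of -0.57 (standard error 0.16) had an adjusted p of 0.187 by limma and 0.0378 by DESeq2. SLC7A11, the cystine importer that feeds glutathione synthesis, had 1622, 2646 and 2737 against 1604, 1079 and 1460.3. Replicate 1 of UE7T-9 Cont was almost level with replicate 1 of UE7T-9 SHC4. The log2 difference of -0.74 (standard error 0.22) had a limma adjusted p of 0.206 with all libraries. Without UE7T-9 Cont replicate 1, the limma adjusted p was 0.0135 for SLC7A11 and 0.0171 for ACSL4. GCLM, a subunit of the first enzyme of glutathione synthesis, was lower without overlap (1378 and 1051, adjusted p = 0.272), and BACH1, a heme-binding repressor of HMOX1, higher without overlap (2607 and 3375.5, adjusted p = 0.284). NFE2L2, which encodes NRF2, and GPX4, which reduces lipid peroxides, had log2 differences of 0.016 and 0.11 with overlapping groups.

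Heme synthesis had 5 of 8 tested genes higher by sign and 3 lower. ALAD, its second enzyme, averaged 941 ± 186 in the controls and 1283 ± 103 with SHC4 (SD, n = 3 each), with no overlap and a log2 difference of 0.46 (limma adjusted p = 0.242). FECH, which inserts the iron, averaged 361 ± 159 and 489 ± 27.2 (SD, n = 3 each), with overlap and a log2 difference of 0.52 (limma adjusted p = 0.409). PPOX, the enzyme before FECH, was higher without overlap (214.5 and 276, adjusted p = 0.340). ALAS1, the first and rate-limiting enzyme outside red cells, was lower by sign (1379 and 1046, adjusted p = 0.312) with overlapping groups.

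Without UE7T-9 Cont replicate 1, 6 of the 77 genes (ACSL4, ALAD, ALAS1, CCS, FECH and SLC7A11) had a limma adjusted p below 0.05, beside 1311 (5.68%) of 23087 genes tested in that fit. None of the 9 genes listed with HEPH was among them.

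**Figure D5:**
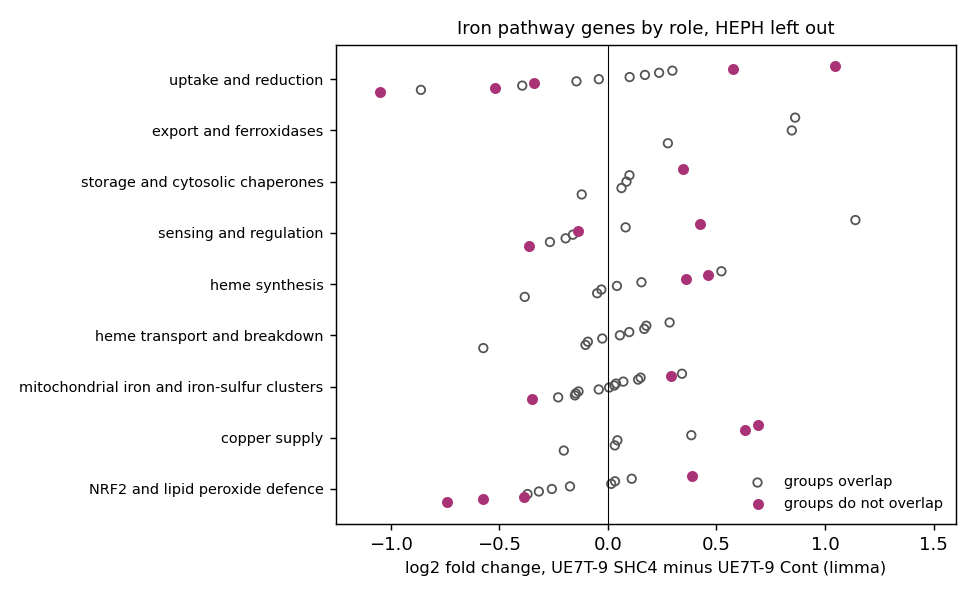
Log2 difference (UE7T-9 SHC4 minus UE7T-9 Cont, log2(normalized count + 1) scale) of each tested gene of the iron list other than HEPH, by role. Filled points are genes whose groups do not overlap, 10 of them higher and 9 lower, and roles from uptake to lipid peroxide defence hold genes on both sides of 0 except the 3 of export and ferroxidases.

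In mitochondrial iron and iron-sulfur cluster assembly, 8 of 14 genes were higher by sign and 6 lower, with a median log2 difference of 0.02. BOLA3, an iron-sulfur cluster assembly factor, was lower without overlap at 327 ± 19.7 and 256 ± 17.01 (SD, n = 3 each), a log2 difference of -0.35 (limma adjusted p = 0.308). SLC25A37, the mitochondrial iron importer mitoferrin 1, averaged 1455 ± 204 and 1851 ± 329 (SD, n = 3 each), a log2 difference of 0.34 (limma adjusted p = 0.375). In heme transport and breakdown, 5 of 9 were higher by sign and 4 lower, and ABCG2, an efflux pump for porphyrins, averaged 125 ± 34.6 and 84.1 ± 24.9 (SD, n = 3 each), a log2 difference of -0.57 (limma adjusted p = 0.424). Among the storage genes, NCOA4, the receptor that sends ferritin to lysosomes, averaged 4564 ± 465 and 4198 ± 405 (SD, n = 3 each, limma adjusted p = 0.737). In sensing and regulation, 3 of 8 were higher by sign and 5 lower, and TMPRSS6, a membrane protease of hepcidin control, was at 0 in 3 of the 6 libraries and had a log2 difference of 1.14 (standard error 1.08, limma adjusted p = 0.670). SLC22A17, LYRM4, PPOX, BACH1, ALAD, ACO1, CCS, ATP7B, CYBRD1 and FTH1 were the 10 genes higher without overlap, and the lower 9 were TFRC, IREB2, SLC39A14, SCARA5, NEO1, BOLA3, GCLM, SLC7A11 and ACSL4.

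Markers of other cells known for iron handling were mostly low. PTPRC, a marker of white blood cells, was at most 6.82 in any library and 0 in SHC4 replicate 3. Of 6 macrophage markers, AIF1 and TYROBP had no row in the tables used here, and the other 4 summed to between 122 and 140.1 in the controls and between 92.0 and 99.3 with SHC4, without overlap. Of 6 hepatocyte markers, ALB and AHSG had no row, and the other 4 summed to between 11.7 and 31.5 in the controls and between 3.49 and 9.67 with SHC4. Of 6 erythroid markers only EPOR had a row, at 272 to 356 in the controls and 303 to 350.4 with SHC4. The 6 epithelial markers summed to between 97.7 and 197 in the controls and between 29.97 and 119 with SHC4, and all 6 were lower by sign. KRT18, a keratin, was lower without overlap, at 63.9 ± 41.8 and 9.31 ± 10.2 (SD, n = 3 each, log2 difference -2.92, limma adjusted p = 0.158, DESeq2 0.00804). The macrophage and hepatocyte sums were lower with SHC4 without overlap and the epithelial sum with overlap. Gene by gene, CD14, CD163 and CSF1R overlapped, and only PTPRC, with at most 7 reads, did not. Of the hepatocyte genes only SERPINA1 (14.7 and 0.293) was lower without overlap, and TTR was higher by sign (2.68 and 3.72). Of all genes tested by limma, 10.2% were lower without overlap. The part of these markers in the differences above was not tested.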

How the data were processed

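RNA of 3 UE7T-9 Cont and 3 UE7T-9 SHC4 samples was sequenced on a NovaSeq system, and groups and replicate numbers were taken from the labels. The values the authors deposited are a signal: the read count of each gene after division by the size factor of its library (0.849 to 1.20). Dividing by the smallest nonzero value gave whole reads for 100% of values (tolerance 0.01 reads). The submitters' processing notes name HISAT2 2.0.5, featureCounts 1.5.0-p3 and DESeq2. The genome build, annotation and strand setting are not given in the sources used here, so positions were matched by Ensembl identifier to GENCODE 29 (GRCh38).

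The test was limma 3.58.1 with trend (R 4.3.3) on log2(value + 1), run over 23040 genes whose mean reached 1 and adjusted over them by the Benjamini-Hochberg method, and a call needed an adjusted p below 0.05 and an absolute log2 difference above 1. DESeq2 1.42.0 and edgeR 4.0.16 (quasi-likelihood) were run on the recovered reads, and at these thresholds they called 170 and 9 genes higher and 185 and 1 lower. Ratios were compared with two-sided exact permutation tests. The fits were also run on simulated counts, with independent libraries and changes set only in well-read genes. That run does not cover genes near the floor or shifts of whole libraries. The genes and lists were chosen with earlier results of these data known. Genes were named as the 10 iron genes, pathway genes with a DESeq2 adjusted p below 0.05, the 2 largest differences in each role, the 5 profiles nearest to HEPH and neighbours within 500 kb. The other genes named by role were chosen after their values were seen. Alternatives were other scalings, filters, pseudocounts and tools, a replicate block and leaving out each library. Libraries of the same group differed by a mean chi-square per gene of 13.1 to 131, where sampling noise alone gives about 1. This checks only for repeated libraries, not that samples are independent.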

Additional observations from a re-analysis of the deposited data

How the results depend on the processing

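Over all genes, 12 passed as higher with SHC4 and 2 as lower. The counts were 22 and 6 with library size scaling, 20 and 4 with TMM, 31 and 9 with no filter on low values, 170 and 185 with DESeq2, and 1 lower gene with pseudocount 0.1 and with edgeR. Leaving out each library gave 1 to 367 higher and 0 to 339 lower, both highest without UE7T-9 Cont replicate 1. Of the iron list other than HEPH, which was selected on these values, 0 genes were called higher and 0 lower. DESeq2 called 1 higher (CYBRD1), and leaving out each library gave 0 to 1 higher (CYBRD1, without UE7T-9 SHC4 replicate 1). With pseudocount 0.1 the log2 difference of HEPH, given as a description, went from -5.75 to -7.30. Library size scaling, which moved the median of all genes to -0.10, turned FTL to -0.040 and SLC11A2 to -0.0026. Leaving out each library gave CP -0.28 to 1.49, FTL -0.034 to 0.17, SLC11A2 -0.019 to 0.22, SLC40A1 0.069 to 0.68 and HMOX1 -0.099 to 0.60, so single libraries set their size or direction. For the iron list genes named by rule other than HEPH, 301 alternative values kept the direction and the side of an adjusted p of 0.05 (no fold limit). Another 9 newly passed it and 6, those of CP, FTL, SLC11A2 and HMOX1, reversed. The 301 include the DESeq2 values of CP, SCARA5 and TMPRSS6, which had no adjusted p and kept the direction only. Of the list genes named beyond the rule, NFE2L2, GPX4, ATOX1 and ATP7A changed sign without some library.

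The replicate numbers were not treated as pairs, because deviations of same-numbered libraries did not all correlate (0.148, 0.013 and -0.00696). The value of the replicate 1 libraries, 0.148, was the highest of any control library with any SHC4 library. A replicate block gave 25 genes called higher and 14 lower, and an adjusted p of 0.153 for TFRC. Not every library correlated best with its own number. The cause of these shifts was not tested. A normalized count below 2.50 to 3.53 stands for fewer than 3 reads, which limits HEPH in UE7T-9 SHC4, CP and HEPHL1.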
